A study of Sus scrofa with 5 samples.

Results

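The cells described here were the T cells of the cecal mucosa of 14-day-old and 21-day-old piglets, compared between these ages. A cell was counted as a T cell when it had at least 200 detected genes, at least 2 unique molecular identifiers (UMIs) of CD3E and CD3G together, none of EPCAM and at most 1 of MS4A1 and CD79B together. The members were thus chosen by measured counts of these genes, whose values are given only as a description. This rule took 5481 of 16177 cells at 14 days of age (d14) and 6931 of 16892 at d21, or 12412 of the 72701 cells of all 5 libraries. The libraries were made with the 10x Genomics 3′ single-cell kit from ceca of male, pure-line Large White piglets. The piglets were sampled on the day of birth or at 1, 7, 14 or 21 days of age. All of them suckled and had no antibiotics, immunizations or additives. At each age the cells of 5 piglets were mixed and loaded as 1 library. There was thus 1 library per age and no replicate, so no difference between the ages could be tested, and differences between ages, between piglets and between libraries cannot be told apart. The intervals given below are 95% intervals that cover counting error only.

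T cells recognise antigen through a receptor that signals through the CD3 chains, and the co-receptors CD4 and CD8 mark those that respond to MHC class II and class I. In the gut mucosa they include helper and regulatory cells, which secrete or restrain cytokines, and cytotoxic cells of the epithelium, which carry granzymes, receptors shared with natural killer (NK) cells and adhesion molecules such as ITGAE. Pigs have many gamma delta T cells besides. The T cell receptor chains were not analysed here, so cells with alpha beta and gamma delta receptors cannot be told apart.

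T cells made up 33.9% (33.2 to 34.6) of the kept cells at d14 and 41.0% (40.3 to 41.8) at d21, after 26.2% at d7. The log2 ratio of the shares was 0.28 (0.24 to 0.32). The T cells were close in depth, with median UMI counts of 4385 and 4232 and totals of 32287939 and 37030695 counts. The remaining cells were not, with medians of 3916 and 1560. Mitochondrially encoded genes took 5.13% and 6.55% of the T cell counts, and 79 cell barcodes, 13 of them T cells in both, occurred in both libraries. Marker genes that the rule did not use were far higher in the T cells than in the other cells. CD247, the zeta chain of the receptor complex, had a level of 3.07 counts per 10000 at d14 and 4.11 at d21, against 0.241 and 1.02 in the other cells. LAT, an adaptor of receptor signalling, was at 1.37 and 0.853 against 0.161 and 0.294. CD3D was low in both libraries, at 0.0842 and 0.143. Cells just inside the rule, with exactly 2 CD3 UMIs, numbered 571 at d14 and 1217 at d21 and had summed levels of 9.10 and 11.4 over the T cell markers. Cells just outside, with 1 CD3 UMI, numbered 1314 and 2507 and had levels of 3.50 and 6.76, and in cells without any CD3 UMI the levels were 1.09 and 3.56. The other cells of the d21 library therefore held more T cell RNA than those of d14, and values for "other cells" are read with that limit. The same holds for the T cell share, since cells outside the rule at d21 carried T cell RNA. With at least 1 CD3 UMI the log2 ratio of the shares was 0.41, and with at least 3 it was 0.16.

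Counts were summed over the T cells of a library and expressed per 10000, which is called the level. A gene was tested, in the sense of compared, when its mean level over both ages was at least 0.1, and differences are log2 ratios of d21 over d14 with 0.1 added to both levels. Unless said otherwise, 2-fold means 1 on this scale, which understates the ratio of genes with low levels. A gene below 0.1 at 1 age passed the level limit only through the other age, which fixed its direction. Of 7559 genes, 40 (0.529%) were at least 2-fold higher at d21 and 129 (1.71%) at least 2-fold lower, and 6938 lay within 0.5 of 0. Counts of 2-fold higher or lower members of a list or stretch are read below against these shares. The median log2 ratio was -0.04. The genes that were lower were split by whether their level at d14 was higher in the other cells or in the T cells. For 104 of the 129 the level at d14 was higher in the other cells than in the T cells, and 89 of these were at least 2-fold lower in the other cells as well. The other 25 had a higher level in the T cells, and of these 0 were 2-fold lower in the other cells. This 0 was in part fixed in advance. With 0.1 added, a gene below 0.1 in the other cells at d14 cannot be 2-fold lower there. Several of the 25 were below it, such as LAG3 (0.0791), CD4 (0.0797) and IL17F (0.0260). Among the 40 genes that were higher, 29 had a higher level in the T cells at d21. Of the 40, 24 were also at least 2-fold higher in the other cells. Of the 29, 17 were 2-fold higher there and all 29 were above 0. These counts for the other cells carry the limit given above, that the other cells of d21 held more T cell RNA. The share of all 7559 genes past 2-fold in the other cells is not given here. The counts are therefore not read as more or less overlap than that of all genes. At d7, 25 of the 29 had a T cell level above that of d14, and 3 a level above that of d21.

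**Figure D1:**
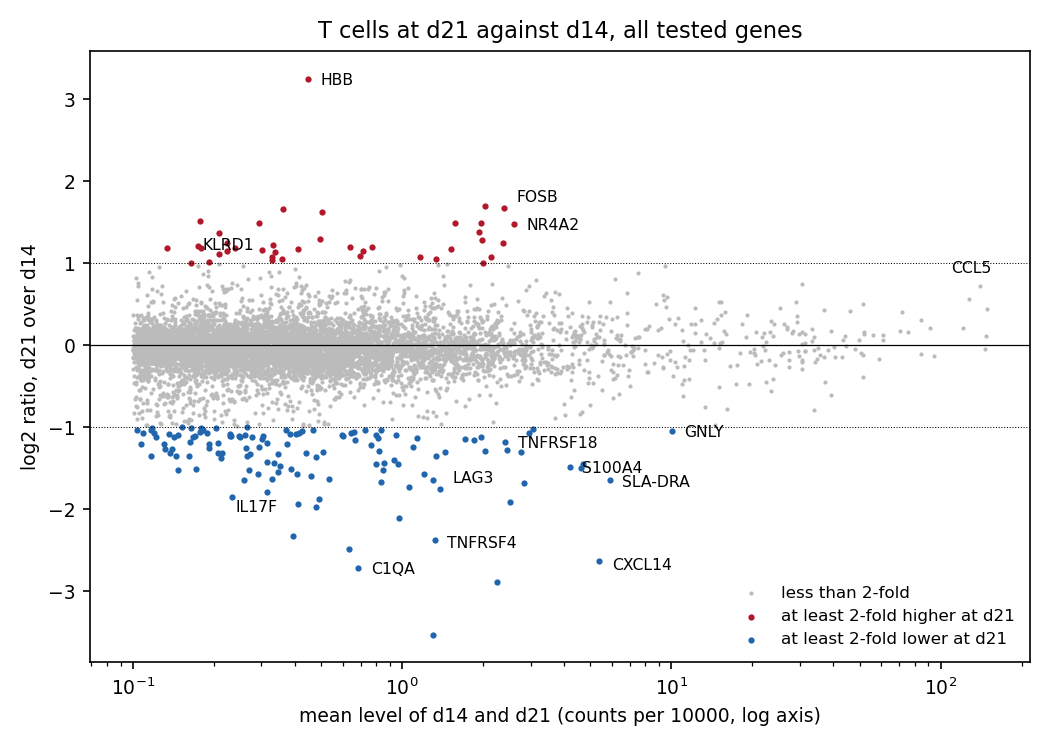
Log2 ratio of d21 over d14 in the T cells against the mean level of both ages (counts per 10000, log axis) for 7559 genes, 1 point per gene. The 40 red points are at least 2-fold higher and the 129 blue points at least 2-fold lower at d21, and most genes lie near 0.

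The 25 genes that were lower at d21 and more abundant in T cells included TNFRSF4, IL17F, CCL1, LAG3, IL17A, LOC110259478, S100A4, PDCD1, BLK, LTB, CCR4, CCL20, TNFRSF18, KLRB1, CD4, SLAMF1, IL10, IL26, ICOS, ZC3H12D, GNLY, S100A1, TNF and ESPN. This grouping was made after the values were seen. When only the T cells without any UMI of 12 marker genes of other cell types were used, 1908 cells at d14 and 2682 at d21, 24 of the 25 were still at least 2-fold lower, and the exception, TNF, had a log2 ratio of -0.97.

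**Figure D2:**
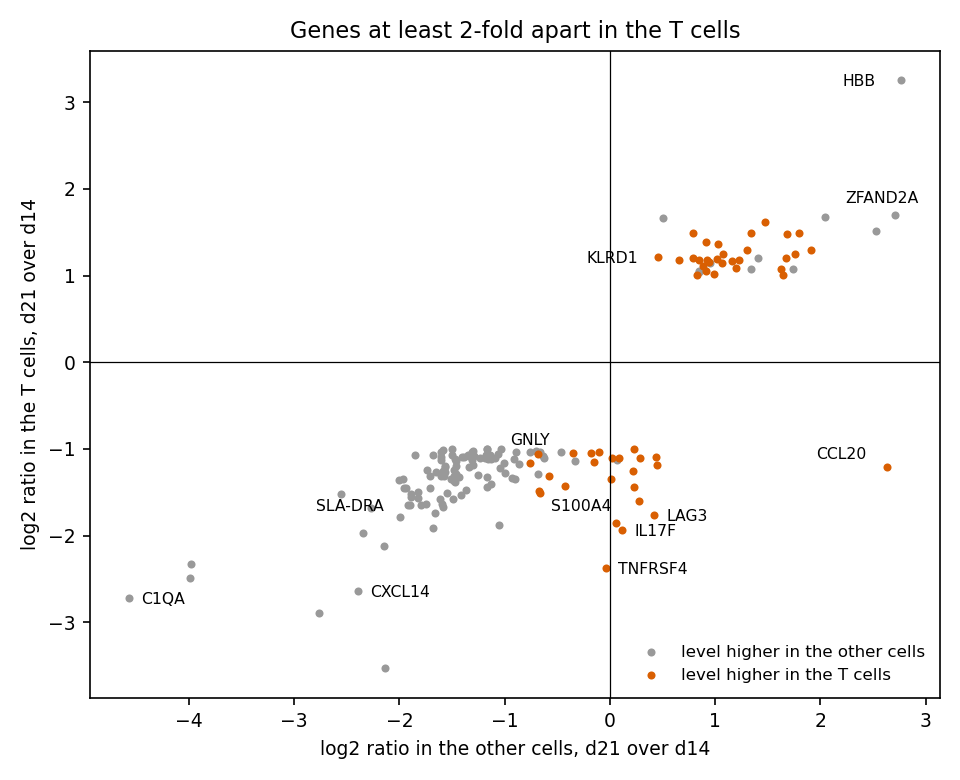
Log2 ratio of d21 over d14 in the T cells (vertical axis) against the ratio in the other cells (horizontal axis) for the 169 genes at least 2-fold apart in the T cells, coloured by which cells had the higher level (at d14 for lower genes, at d21 for higher genes). The orange points below 0 on the vertical axis, among them TNFRSF4, IL17F and LAG3, lie between -0.76 and 0.45 on the horizontal axis except CCL20 (2.63), while the grey points such as C1QA and CXCL14 are lower in both. With 0.1 added, genes below 0.1 in the other cells at d14, such as IL17F and LAG3, cannot reach -1 on the horizontal axis.

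CD4, the co-receptor of helper and regulatory T cells, was lower at d21, while both CD8 chains were near their d14 level. The level of CD4 was 0.452 at d14 and 0.149 at d21, a log2 ratio of -1.15. CD8A was at 1.44 and 1.63 (log2 ratio 0.17), and CD8B, the chain found mainly on conventional cytotoxic T cells, at 0.424 and 0.406 (-0.05). To compare shares of positive cells at 1 depth, each cell was thinned to 1000 UMIs, which left out 128 and 277 shallower T cells. CD4 was then seen in 4.82% (4.26 to 5.43) of T cells at d14 and 2.24% (1.90 to 2.62) at d21, a log2 ratio of -1.11 (-1.39 to -0.82). Without thinning the shares were 16.5% and 5.77%. As a background, cells with collagen UMIs and no CD3 UMI, 2429 at d14 and 852 at d21 with median UMI counts of 4932 and 2652, were thinned in the same way. CD4 was seen in 0.165% and 0.235% of them. CD8A was seen in 14.1% and 15.9% of the thinned T cells and CD8B in 4.56% and 3.62%, and the sign of the CD8B difference depended on the thinning depth.

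In the regulatory T cell list, 4 of 12 tested genes were at least 2-fold lower at d21, TNFRSF4, TNFRSF18, IL10 and CCR4, against 1.71% of all genes. TNFRSF4 (OX40), a co-stimulatory receptor of activated and regulatory T cells, had a level of 1.59 at d7, 2.28 at d14 and 0.360 at d21, the lowest of these 3 ages. Its log2 ratio of d21 over d14 was -2.37, and the interval of the ratio without an added constant was -2.75 to -2.58. TNFRSF4 was seen in 13.6% (12.7 to 14.5) of thinned T cells at d14 and 3.14% (2.73 to 3.59) at d21, and in 0.412% and 0.352% of the collagen cells. Its relative TNFRSF18 (GITR) went from 3.40 to 1.44, a log2 ratio of -1.18, and the share of positive thinned cells from 22.8% to 12.5%. IL10, the suppressive cytokine, was at 1.13 and 0.472 (-1.10). CCR4, a chemokine receptor of skin- and tissue-homing helper and regulatory cells, was at 0.412 and 0.115 (-1.25), and CCL1, a chemokine made by activated T cells, at 0.423 and 0.0448 (-1.85). None of the 12 was 2-fold higher, and the median of the list was -0.87 against -0.04 for all genes. FOXP3, the defining transcription factor, and CCR8 were below the level limit, FOXP3 with 0.154 at d14 and 0.0373 at d21. IL2RA was at 0.705 and 0.322 (-0.93), TIGIT at 0.282 and 0.118 (-0.81) and CTLA4 at 0.152 and 0.0602 (-0.66), and without the constant these 3 levels differ by more than 2-fold. IKZF2 had the highest ratio of the list, 0.46.

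Several inhibitory and co-stimulatory receptors showed the same direction. LAG3, an inhibitory receptor that binds MHC class II, was at 1.09 at d7, 2.18 at d14 and 0.574 at d21, a log2 ratio of -1.76 (interval without the constant -2.0 to -1.86). It was seen in 14.3% (13.4 to 15.3) of thinned T cells at d14 and 5.26% (4.74 to 5.82) at d21, with 0.206% and 0.117% of collagen cells. PDCD1 (PD-1) was at 0.536 and 0.134 (-1.44) and ICOS at 0.848 and 0.345 (-1.09). In the list of activation and checkpoint genes, 4 of 17 tested members were at least 2-fold lower and 0 higher, with a median of -0.41. The shares over all genes were 1.71% and 0.529%. The 4 lower members, TNFRSF4, LAG3, PDCD1 and ICOS, are in part the genes of the regulatory and follicular helper lists, so the lists are not separate evidence. HAVCR2 (-0.24), TOX (-0.18) and TNFRSF9 (-0.09) were close to the median of all genes, and IL2RB, a receptor chain for IL-2 and IL-15, was at 0.43.

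TNFRSF4, LAG3 and PDCD1 were lower in cells with and without CD4. Among all T cells with a UMI of TNFRSF4, 43.9% (41.3 to 46.5) of 1448 cells at d14 and 31.3% (27.4 to 35.4) of 534 at d21 also had a CD4 UMI. For LAG3 the shares were 25.5% of 1745 cells and 12.1% of 972. When T cells were split by their co-receptor UMIs at full depth, cells with CD4 and without CD8B made up 16.0% at d14 and 5.58% at d21. Cells with CD8B and without CD4 made up 12.1% and 11.7%, cells with CD8A alone 26.9% and 32.2%, and cells with none of the 3 44.6% and 50.3%. Median UMI counts at d14 and d21 were 5218 and 3879 in the CD4 class and 4984 and 5587 in the CD8B class. They were 4666 and 4920 in the CD8A class, and 3826 and 3618 in cells with none of the 3. With cells thinned to 1000 UMIs, the CD4 class made up 4.80% and 2.24% and the CD8B class 4.54% and 3.62%. TNFRSF4 was most abundant in the CD4 class, at 6.84 and 2.88, a log2 ratio of -1.22 within the class. Its ratio was -0.65 in the CD8B class, -2.13 in the CD8A class and -2.14 in cells with none of the 3. LAG3 had ratios of -0.90, -0.63, -1.60 and -1.96 in the same order, and PDCD1 of -0.82, -0.76, -1.27 and -1.32. ICOS was near its d14 level in the CD4 class (-0.29) and the CD8B class (0.0027) and lower in the others (-0.90 and -1.02). The median of the regulatory T cell list was -0.41 in the CD4 class and 0.03 in the CD8B class. It was -0.64 in the CD8A class and -0.94 in cells with none of the 3. The classes depend on detection, since a cell without a UMI may still carry the transcript, and the differences between classes were not tested.

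Genes of type 17 and type 3 responses, which drive neutrophil recruitment and epithelial defence, were at least 2-fold lower at d21 in 6 of 10 tested members, against 1.71% of all genes. IL17A was at 0.989 at d7, 0.740 at d14 and 0.178 at d21, a log2 ratio of -1.60. IL17F was at 0.515, 0.707 and 0.111 (-1.94). Both were lower at d21 than at either earlier age. IL17A was seen in 2.84% (2.41 to 3.32) of thinned T cells at d14 and 0.887% (0.676 to 1.14) at d21, and in 0.0823% and 0.117% of collagen cells. IL26 (-1.10) and CCL20 (-1.21), a chemokine for CCR6-bearing lymphocytes, were 2-fold lower as well, although CCL20 in the other cells was 0.144 at d14 and 1.42 at d21. No tested member of the list was 2-fold higher, and the median was -1.15. CTSH, another of the lower members, had more RNA in the other cells and was lower in them too (-1.95). IL22 stayed within 2-fold (0.983 and 0.645, -0.54), and RORA was at 0.35. By co-receptor class, the IL17F ratio was -2.43 in cells with none of the 3 co-receptors, from 1.19 to 0.139, and -0.76 in the CD4 class, from 0.984 to 0.539. IL17A had ratios of -1.93 and -0.27 in the same classes, but its lowest ratio, -1.99, was in another class. The median of the list was -0.35 in the CD4 class and 0.18 in the CD8B class. It was -0.80 in the CD8A class and -1.43 in cells with none of the 3.

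LTB, KLRB1 and BLK followed the same direction. LTB, lymphotoxin beta, which supports lymphoid tissue, was at 3.99 and 1.55 (-1.31). KLRB1 (CD161), a lectin-like receptor of innate-like T cells and type 17 cells, was at 0.959 and 0.375 (-1.16). BLK, a kinase found in B cells and in IL-17-producing gamma delta T cells, was at 0.504 and 0.125 (-1.42), while MS4A1 and CD79B were near 0 by the rule. In the list of gamma delta and innate-like genes, 2 of 7 tested members were 2-fold lower, BLK among them, against 1.71% of all genes. ZBTB16 (-0.09), SOX4 (0.04) and ID3 (0.11) were near 0. LTB was the single 2-fold lower member of 14 naive and central memory genes, whose median was -0.35. IL7R was at 0.969 and 0.587 (-0.64), LEF1 at -0.53 and TCF7 at 0.26. S100A4, a calcium-binding protein of memory and migrating cells, went from 6.21 to 2.16 (-1.48). It was seen in 32.3% of thinned T cells at d14 and 12.6% at d21, with 5.27% and 3.40% of collagen cells.

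**Figure D3:**
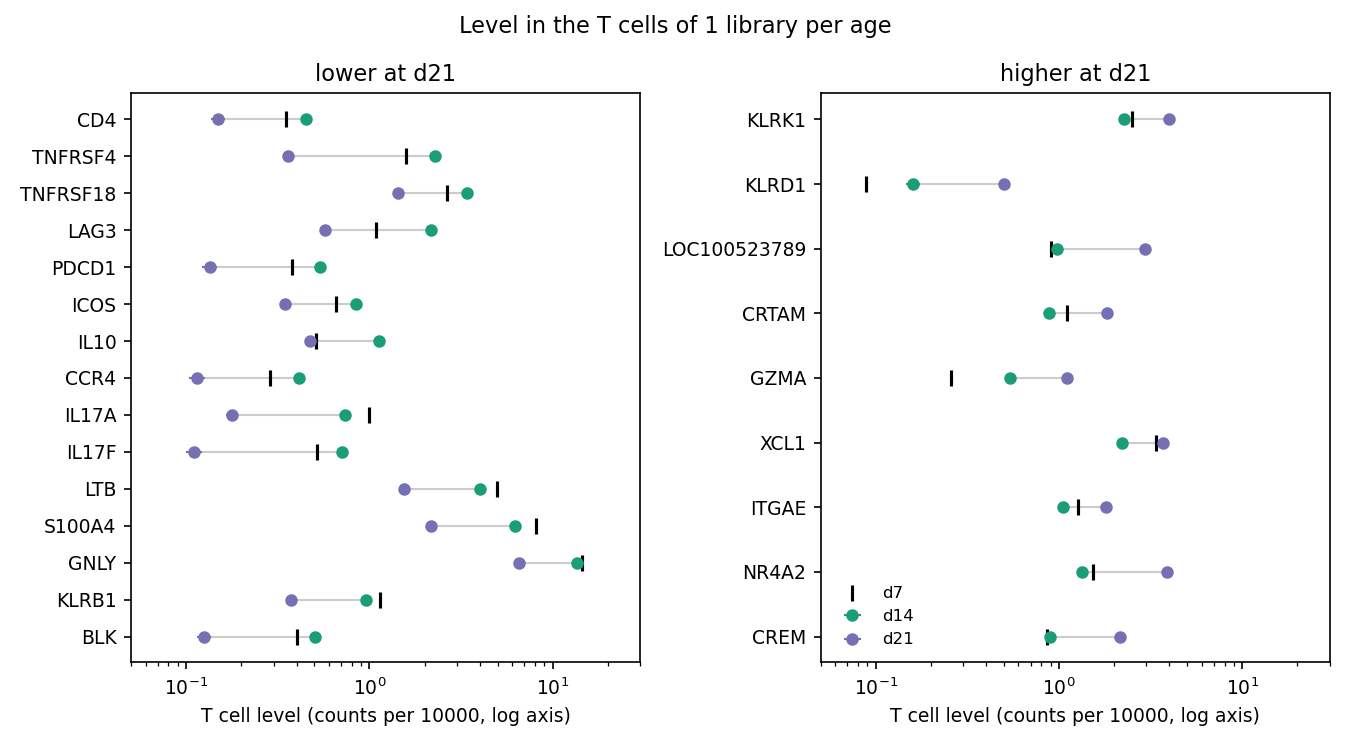
Level in the T cells (counts per 10000, log axis) of selected genes that were lower (left) or higher (right) at d21. Points are the d14 and d21 libraries with exact Poisson intervals of counting error, mostly narrower than the points, and black ticks are the d7 library; TNFRSF4, LAG3, IL17A and CD4 are lowest at d21.

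Cytotoxic genes did not move as 1 group. Their summed level was 168 at d14 and 224 at d21, a smaller difference than that of CCL5 alone. Of 13 tested members, 0 were 2-fold higher and 1 was 2-fold lower, with a median of -0.08. The shares over all genes were 0.529% and 1.71%. CCL5, a chemokine of effector T cells and the most abundant member, was at 84.8 at d7, 106 at d14 and 175 at d21 (0.72). It was also seen in 18.4% of thinned collagen cells at d14 and 69.5% at d21, where its level was 3.11 and 12.5. The share of T cells with CCL5, 73.0% and 94.0%, was thus read against a background that differed between the libraries. GZMA, a granzyme, was at 0.539 and 1.10 (0.91) and XCL1, a chemokine for cross-presenting dendritic cells, at 2.21 and 3.71 (0.73). At d7 GZMA was at 0.258 and XCL1 at 3.40. In the other cells, which held more T cell RNA at d21, the ratios were 1.77 for CCL5, 1.34 for GZMA and 1.24 for XCL1. GZMB (9.26 and 7.98, -0.21), PRF1 (-0.18) and NKG7 (0.39) were nearer to 0, and GZMH had a ratio of -0.69, SRGN of -0.75 and GZMM, at 0.416 and 0.190, of -0.83 (-1.26 to -0.99 without the constant).

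GNLY, granulysin, an antimicrobial granule protein, was the 2-fold lower member. It was at 14.5 at d7, 13.6 at d14 and 6.52 at d21 (-1.05). Its share of positive thinned cells was 13.5% (12.6 to 14.4) at d14 and 11.1% (10.3 to 11.8) at d21, so the level differed more than the share. Among collagen cells 4.53% and 7.86% were positive. The ratio was -1.48 in the CD8A class, -1.33 in cells with none of the 3 and -0.80 in the CD8B class, but 0.80 in the CD4 class, where the level was 2.40 at d14 and 4.26 at d21.

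Receptors of the NK type moved in both directions. KLRD1 (CD94), the partner of the NKG2 receptors, was at 0.160 and 0.504 (1.22), KLRK1 (NKG2D), which binds stress-induced ligands, at 2.27 and 4.00 (0.79), and CRTAM, an adhesion receptor of activated cytotoxic cells, at 0.884 and 1.83 (0.97). At d7 the levels were 0.0881 for KLRD1, 2.49 for KLRK1 and 1.11 for CRTAM. In the other cells, which held more T cell RNA at d21, their ratios were 0.46, 1.33 and 1.55 in this order. KLRK1 was seen in 18.1% (17.1 to 19.2) of thinned T cells at d14 and 28.3% (27.2 to 29.4) at d21. In collagen cells the shares were 0.988% and 4.46%. CRTAM went from 7.49% to 13.3%, with 0.0823% and 1.06% of collagen cells. Of 11 tested members of the list, KLRD1 was 2-fold higher and KLRB1 and TYROBP were 2-fold lower, against 0.529% and 1.71% of all genes. The median was 0.40. TYROBP, an adaptor also used by myeloid cells, was at 2.39 and 1.03 in T cells and at 11.3 and 4.03 in the other cells, and 11.5% and 6.88% of thinned T cells had it against 9.30% and 5.99% of collagen cells. FCER1G was at 0.40 and CD244 at 0.45. The log2 ratio of KLRK1 was 1.00 in the CD4 class, 0.53 in the CD8B class, 0.32 in the CD8A class and 0.88 in cells with none of the 3.

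KLRK1 and KLRD1 lie next to each other on chromosome 5, and all tested genes around them were higher at d21. On the assembly Sscrofa11.1, KLRK1 is at chr5:61646691-61655386 and KLRD1 at chr5:61662083-61673109. The stretch chr5:61439354-61736667, from LY49 to LOC100519314, was chosen after the values were seen and holds 9 protein-coding genes of the files, of which 7 were tested. All 7 were above 0 and 4 were at least 2-fold higher, against 0.529% of all genes, with a median of 1.08. LOC106507518, at 0.0499 at d14, passed the level limit only through d21, so it could only be above 0. LOC100523789, just before KLRK1, was at 0.900 at d7, 0.980 at d14 and 2.93 at d21 (1.49), and its share of positive thinned cells went from 5.94% to 16.3%. LOC106507519 was at 0.411 and 0.988 (1.09) and LOC100519314 at 0.713 and 1.62 (1.08). Both of these had d7 levels, 0.971 and 1.64, near those of d21. In the other cells the ratios were 0.79 for LOC100523789, 1.19 for LOC106507519 and 1.63 for LOC100519314. The annotation gives no name to these loci, and near-identical neighbours can share reads, so single values within the stretch are uncertain.

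Among genes of tissue residency, ITGAE, GPR15, CD69 and RUNX3 were higher at d21, with log2 ratios below 1. ITGAE (CD103), the integrin that binds epithelial E-cadherin, was at 1.05 and 1.81 (0.73). GPR15, a homing receptor for the large intestine, was at 0.107 and 0.271 (0.84, and 1.16 to 1.52 without the constant), CD69 at 0.640 and 1.07 (0.66), and RUNX3, a transcription factor of cytotoxic and resident T cells, at 2.65 and 4.19 (0.64). At d7 the levels were 1.27 for ITGAE, 0.129 for GPR15, 0.590 for CD69 and 2.97 for RUNX3. In the other cells, which held more T cell RNA at d21, the ratios were 1.18 for ITGAE and 0.75 for GPR15. They were 1.41 for CD69 and 0.73 for RUNX3. ITGAE was seen in 9.86% (9.08 to 10.7) and 16.5% (15.6 to 17.4) of thinned T cells and in 1.61% and 2.11% of collagen cells. Of 18 tested members 10 were above 0 and 8 below, with 0 past 2-fold and a median of 0.07. CXCR3 (-0.60) and CCR6 (-0.70), receptors for inflammatory chemokines, were at the lower end.

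Several of the 12 genes with the highest ratios at a mean level of at least 0.5 are known to respond to acute stimulation or stress. NR4A2, an orphan nuclear receptor induced by receptor signalling, was at 1.33 and 3.89 (1.48), with 11.7% and 26.1% of thinned T cells positive against 3.99% and 8.80% of collagen cells. NR4A3 (1.14), CREM (1.18), a cAMP-responsive repressor, and SNAPC1 (1.20) were also 2-fold higher, as was CISD3, a mitochondrial iron-sulfur protein, at 1.02 and 2.83 (1.38). FOSB, an AP-1 subunit, was at 1.09 and 3.70 (1.67), and ZFAND2A, a protein induced by heat and arsenite, at 0.902 and 3.15 (1.70). Both were higher in the other cells of d21 (6.54 and 4.51), with ratios there of 2.05 and 2.71. The ratios in the other cells were 1.68 for NR4A2, 1.07 for NR4A3, 0.84 for CREM, 0.79 for SNAPC1 and 0.92 for CISD3. At d7 the T cell levels were 1.53 for NR4A2, 0.210 for NR4A3, 0.864 for CREM and 0.393 for SNAPC1. They were 1.95 for CISD3, 2.15 for FOSB and 0.377 for ZFAND2A. FOSB was seen in 12.1% of thinned collagen cells at d14, more than in T cells (10.6%), and in 18.1% at d21 against 26.0% in T cells. The ratio of NR4A2, CREM and FOSB was at least 1 in all 4 classes.

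Several classical immediate early genes did not follow. JUN (-0.09), JUNB (-0.03), EGR1 (0.07) and IER2 (-0.09) were near 0 and FOS at 0.32. ATF3 was at 1.64 and 3.31 (0.97), with a ratio of 1.26 in the other cells. Of 19 tested genes of this list 2 were 2-fold higher, against 0.529% of all genes. In the list 12 were above 0 and 7 below, with a median of 0.07, against 0.68 in the other cells. Heat shock genes had 12 of 14 members above 0 and a median of 0.33, with HSPH1 at 6.41 and 12.6 (0.96) and DNAJA1 at 5.29 and 9.80 (0.88). HSPA6 went the other way, 20.2 and 11.8 (-0.77). In the other cells HSPH1 and DNAJA1 had ratios of 1.52 and 1.29, and the median of the list was 0.63. The mitochondrial share of the other cells was 5.72% and 9.53%, and its part in these values was not tested. Interferon-induced genes had 13 of 19 members above 0 and a median of 0.33. IFIT1 (0.561 and 1.18, 0.95), HERC5 (0.78) and USP18 (0.62) were highest, ISG15 was at 7.63 and 11.6 (0.59), IRF7 was lowest (-0.68), and 0 were past 2-fold. In the other cells the ratios were 0.20 for IFIT1, 0.87 for HERC5 and 0.32 for USP18, and the median of the list was 0.24.

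**Figure D4:**
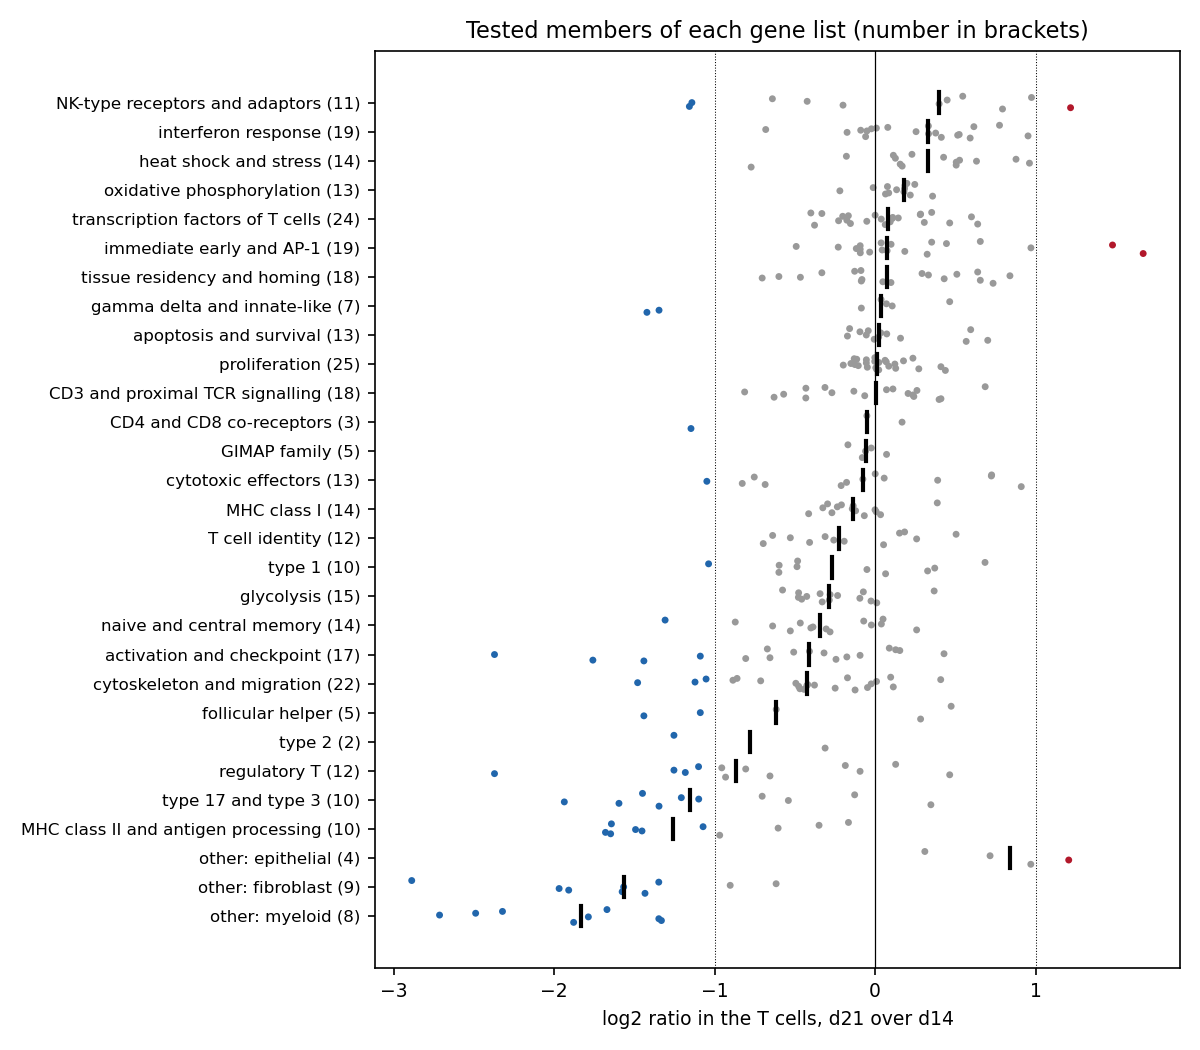
Log2 ratio of d21 over d14 in the T cells for each tested member of 26 lists of T cell genes and 3 lists of other cell types (number of members in brackets). Points are genes, coloured when at least 2-fold apart, and black bars are medians; the type 17, regulatory T and MHC class II lists have medians of -1.15, -0.87 and -1.26.

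The share of T cells with UMIs of several cell cycle genes was higher at d21, while the median of a longer proliferation list was near 0. A cell was put in the proliferation gate when it had at least 3 UMIs over 17 cycle genes after thinning. The share was 17.9% at d14 and 21.9% at d21, a log2 ratio of 0.29 (0.18 to 0.39), and 6.22% and 3.52% of collagen cells passed it. MKI67 (0.808 and 1.13, 0.44) and RRM2 (1.25 and 1.70, 0.41) were highest among 25 tested members of the proliferation list, whose median was 0.01. That list also holds genes outside the gate, such as MCM5 and HMGB2, and the median of the 17 gate genes is not given. Glycolysis genes were lower on the median (-0.29, 13 of 15 below 0) and oxidative phosphorylation genes higher (0.18, 11 of 13 above 0), with 0 past 2-fold in either. The medians of these lists in the other cells were close to those in the T cells, at -0.29 and 0.22. Genes of proximal receptor signalling had a median of 0.0029, with SIT1 (-0.81) and LAT (-0.63) lowest and TXK highest (0.69). In the cytoskeleton and migration list, S100A4, S100A6 (-1.12) and ANXA1 (-1.05) were the 2-fold lower members of 22, against 1.71% of all genes. The median of this list was -0.42, and -0.49 in the other cells. S100A6 and ANXA1 had more RNA in the other cells at d14 (5.27 and 3.90), with ratios there of 0.07 and -1.07. In the T cells without UMIs of the marker genes of other cell types their ratios were -1.02 and -0.30. TNF (1.16 and 0.512, -1.04) was the single such member of 10 type 1 genes, whose median was -0.27, and TBX21 was at 0.07. The lists of T cell identity genes, T cell transcription factors, GIMAP genes and survival genes had 0 members past 2-fold and medians of -0.23, 0.08, -0.06 and 0.02.

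A block of short genes on chromosome 7 was higher at d21. It holds HIST1H2BD and HIST1H3E, which encode core histones, and many loci without a name. The stretch chr7:20682536-21946018, from TRIM38 to ZNF165 on Sscrofa11.1, was chosen after the values were seen. Of 73 protein-coding genes of the files in it 38 were tested, and 32 of these were above 0, with a median of 0.75. At least 2-fold higher were 14 of the 38, against 0.529% of all genes. Some of the 38 had d14 levels below 0.1, such as LOC100156127 (0.0431) and LOC100525821 (0.0725), both among the 14. Such genes passed the level limit only through d21, so they could only be above 0. The stretch gave 14 of the 29 genes that were higher and more abundant in T cells. LOC574051 was at 1.11 and 2.85 (1.29), LOC100154071 at 0.195 and 0.809 (1.62) and LOC110261483, the most abundant, at 12.3 and 17.7 (0.52). HIST1H2BD (0.46) and HIST1H3E (0.05) were within 2-fold. At d7 the levels were above those of d14 for 32 of the 38, for example 2.15 for LOC574051, so that d14 was the lowest of these 3 ages for most of the block. In the other cells LOC574051 had a ratio of 1.91. LOC110261661 of the same stretch (1.20) and LOC106510170 outside it (1.36 and 3.38, 1.25) were also among the 12 named genes with the highest ratios.

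Myeloid and fibroblast transcripts were lower in the T cells of d21, as they were in the other cells. The lower genes included 104 that were more abundant outside the T cells. In the T cells without any UMI of 12 marker genes of other cell types, 9 of these 104 were still at least 2-fold lower. There 95 of the 104 were below 0, and 7 of the 104 are themselves among those marker genes. The part of RNA of other cell types in these 104 genes was not tested. All 8 tested myeloid markers were at least 2-fold lower, against 1.71% of all genes. The summed levels of the myeloid list were 7.19 at d14 and 1.15 at d21 in the T cells and 41.8 and 8.30 in the other cells. C1QA, a complement subunit of macrophages, was at 1.27 and 0.108 (-2.71) and at 8.73 and 0.272 in the other cells. Of 9 fibroblast markers 7 were 2-fold lower, with sums of 13.3 and 2.90 in T cells and 63.6 and 16.8 in the other cells. CXCL14, a chemokine of the stroma, was at 9.36 and 1.42 (-2.64) in T cells and at 168 and 70.1 in collagen cells. LOC396781, for which RefSeq lists the synonym IGHG, had the lowest ratio of all named genes (2.47 and 0.122, -3.53) and was at 28.7 and 6.43 in the other cells. Among the 12 genes with the lowest ratios at a mean level of at least 0.5, leaving out those marker lists, TNFRSF4 and LAG3 alone had more RNA in T cells than in other cells at d14. The others were LOC396781, CXCL14, FOLR1, FN1, SLA-DRB1, SLA-DRA, CTSS, TIMP2, APOE and SLA-DQB1, and 6 genes of the marker lists, ADAMDEC1, C1QA, C1QB, COL3A1, AIF1 and COL1A2, ranked among them. JCHAIN of plasma cells was at 4.51 and 3.68, and was seen in 6.78% and 10.2% of thinned T cells, below the 7.20% and 14.1% of collagen cells. The 4 tested epithelial markers were above 0, with a median of 0.84, and so were 2 of 3 dendritic markers, FSCN1 (0.67) and BATF3 (0.53), but not CST3 (-1.27). Epithelial KRT19 (0.0660 and 0.283, 1.21) and the haemoglobin gene HBB (0.00341 and 0.887, 3.25) were higher, HBB after 27.6 at d7. KRT19, HBB and KRT8 (0.0852 at d14) passed the level limit only through d21, so they could only be above 0.

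MHC class II genes were in that group as well, although pig T cells can express them. SLA-DRA was at 9.0 and 2.80 (-1.65), SLA-DRB1 at 4.39 and 1.30 (-1.68) and the invariant chain CD74 at 19.3 and 9.80 (-0.97). Of 10 tested members of the list 6 were at least 2-fold lower, against 1.71% of all genes. The median was -1.26, against -1.84 in the other cells. SLA-DRA was seen in 23.8% and 18.2% of thinned T cells and in 16.4% and 13.1% of collagen cells. The ratio of SLA-DRA was -1.42 or lower in all 4 co-receptor classes. MHC class I genes had a median of -0.14, with 0 of 14 past 2-fold.

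**Figure D5:**
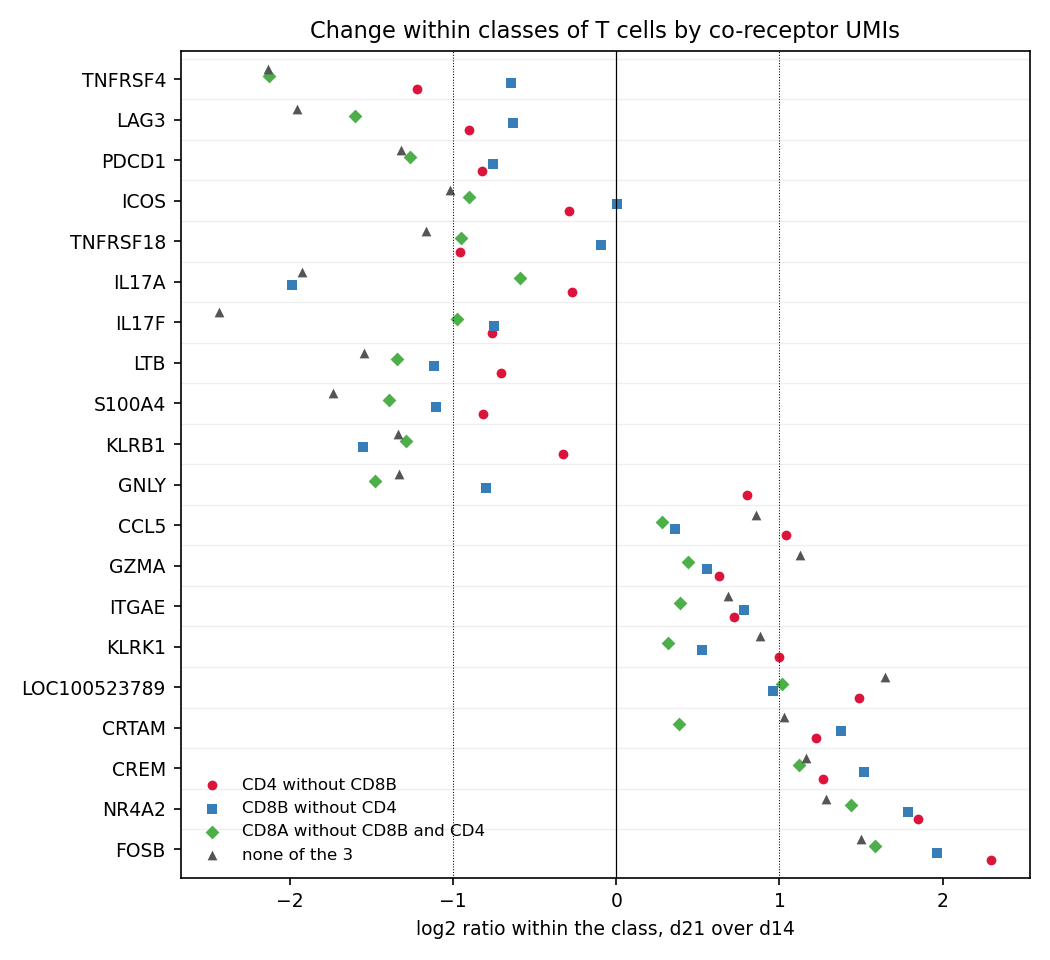
Log2 ratio of d21 over d14 for 20 genes within 4 classes of T cells set by their UMIs of CD4, CD8A and CD8B. Each marker is 1 class; TNFRSF4, LAG3 and S100A4 are below 0 and CREM, NR4A2 and FOSB at 1 or above in all 4, while GNLY is above 0 (0.80) in the CD4 class and below 0 in the others.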

How the data were processed

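The deposited files were matrices of UMI counts per gene and barcode, 1 per library, which the authors made with Cell Ranger 3.1.0 and STAR (submitters' processing notes) on the porcine genome susScr11 (Sscrofa11.1), without normalization. The study set Cell Ranger to 5000 cells per library, fewer than the barcodes found here. No doublets were removed here. All 20648 gene symbols were matched to RefSeq. T cell receptor chains, ZAP70 and some other listed symbols were not analysed here, and some genes that the counts include are not reported here. Shared reads between near-identical loci were not resolved.

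Counts were summed over T cells, scaled per 10000 and compared with 0.1 added, in Python 3.11.15 with NumPy 2.4.6 and SciPy 1.17.1. A gene seen in 3 counts had a level of 0.000929 at d14 and 0.000810 at d21. Intervals were exact Clopper-Pearson for shares, exact Poisson for levels and conditional binomial for ratios of levels. Those of ratios of shares were normal approximations on the log scale. Named genes were those of the rule, the co-receptors, the 12 largest differences each way at a mean level of at least 0.5, and up to 3 each way in each list, with further genes named after their values were seen. The T cells, lists and comparisons were chosen with earlier results of these data known. Other constants, level limits, scalings (TMM of edgeR 4.0.16, median of ratios), cell filters and cell weights were tried. In simulated counts with Poisson noise only, 200 of 200 changed genes among 7671 came out within 0.25 on the log2 scale. The simulation held no differences between piglets or libraries, so it checked the arithmetic only.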

Additional observations from a re-analysis of the deposited data

How the results depend on the processing

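No paired analysis was possible because each age had 1 library. Of the 175 named genes, 57 were at least 2-fold apart, and over the alternatives 4 of 3555 gene values and 1 of 768 list medians turned a direction. The genes at least 2-fold higher numbered 3 with a pseudocount of 1, 78 with 0.01 and 18 at a mean level of at least 0.5, against 40. Those at least 2-fold lower numbered 13, 228 and 51, against 129, and 55 with each cell at equal weight, 53 when cells were thinned before the rule was applied, 38 without cells that had UMIs of other cell types and 61 without cells that had MHC class II UMIs, an alternative chosen after seeing the data. The log2 ratio of the T cell share was 0.36 for cells of at least 500 genes, 0.41 and 0.16 with at least 1 and 3 CD3 UMIs, and 0.34 below 20% mitochondrial counts. For the share with CD4 it was -1.74 at 500 UMIs and -1.51 without thinning, and for CD8B 0.022 and -0.073. Direction turned for CD4 (0.25) and GNLY (0.80) within the CD4 class, whose cells were chosen by CD4, for ICOS in the CD8B class (0.0027), and without MHC class II cells for TYROBP (0.064) and the median of the MHC class II list (0.049). The setting without MHC class II cells kept 702 T cells at d14 and 1331 at d21. Its cells were chosen by MHC class II UMIs, so it cannot show whether that list differed. Other causes were not tested. With 1 library per age, depth limits only counting error, and differences between piglets were not measured.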
